A study of Rattus norvegicus with 18 samples.

Results

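miR-146a and miR-146b are the closely related microRNAs (miRNAs) of the miR-146 family, and their 4 mature arms, rno-miR-146a-5p, rno-miR-146a-3p, rno-miR-146b-5p and rno-miR-146b-3p, were followed through dorsal root ganglia (DRG) of 18 adult Lister hooded rats. They were taken by name, 4 of the 753 miRNAs listed in the count table, and the family was selected on the lower level of miR-146b after injury seen in an earlier look at the same counts. The differences of miR-146b between groups are therefore given as a description. No p-value is printed for them, although the counts of called arms include them and say which of them passed a threshold. Those counts support nothing. These counts are printed beside the share of all miRNAs called, except under alternative settings or with a library left out. By contrast, the arms of miR-146a came along by name. Each of the 3 groups held 6 rats and each rat gave 1 small RNA library, made from ganglia of cervical levels C6-8 that were pooled within the rat. Naïve rats had no surgery and no vector. The bPYX rats had a bilateral pyramidotomy, a cut through the corticospinal tracts of both sides in the medulla, and the following day forelimb flexor muscles of 1 side were injected with an adeno-associated virus of serotype 1 (AAV-1). The vector carried green fluorescent protein (bPYX+GFP) or human prepro-neurotrophin-3 (bPYX+NT3), in either case behind a CMV promoter, which is not limited to a cell type, and DRG of the injected side were collected 10 weeks post-injury. Both bPYX groups shared the injury, the surgery and the vector, so these cannot be told apart in a comparison with naïve rats, whereas bPYX+NT3 against bPYX+GFP differed in the transgene.

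A miRNA is cut from a hairpin precursor, and either side of the hairpin can be kept: the 5p arm and the 3p arm are the mature RNAs of its leading and its trailing side. The arm that is loaded into the silencing complex, here the 5p arm, pairs with messenger RNAs mainly through its seed, bases 2 to 8 from the 5′ end, and represses them. miR-146a and miR-146b are best known from immune cells and glia, where Toll-like receptor and interleukin-1 signalling through NF-kB switches on miR-146a, and where miR-146 represses the adaptor proteins IRAK1 and TRAF6 of that same pathway and so dampens it.

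The mature sequences are shown because the results rest on telling apart 5p arms that are nearly alike. They come from RefSeq (assembly GRCr8), where all 4 arms were found by name, and are written 5′ to 3′ with the seed in capitals:
rno-miR-146a-5p: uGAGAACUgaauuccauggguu
rno-miR-146b-5p: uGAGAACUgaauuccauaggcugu
rno-miR-146a-3p: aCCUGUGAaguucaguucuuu
rno-miR-146b-3p: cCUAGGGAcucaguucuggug

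rno-miR-146a-5p and rno-miR-146b-5p carried the same seed, GAGAACU, and no other of the 693 mature rat miRNAs in that annotation carried it. The 5p arms were identical over their first 17 bases. Counted from 1 at the 5′ end, with the base of rno-miR-146a-5p given before the position, they differed by G18A and U21C, and rno-miR-146b-5p was annotated with 24 bases against 22. A read has to reach those positions to tell them apart, and how many reads stopped short of them was not counted here. The 3p arms, of 21 bases each, were far less alike, with 6 of 21 positions identical. Their seeds, CCUGUGA and CUAGGGA, differed from each other and from that of the 5p arms, and neither was found in another annotated rat miRNA.

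The hairpins show how the arms sit in their precursors, with the 5p arm and then the 3p arm in capitals:
Mir146a: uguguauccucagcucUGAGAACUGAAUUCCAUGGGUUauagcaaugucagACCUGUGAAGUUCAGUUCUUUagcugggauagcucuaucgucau
Mir146b: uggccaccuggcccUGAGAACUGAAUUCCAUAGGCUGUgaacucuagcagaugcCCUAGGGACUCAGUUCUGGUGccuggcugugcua

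The arms were separated by 13 bases in the hairpin of Mir146a and by 16 bases in that of Mir146b. The genes lie on different chromosomes. In GRCr8, Mir146a lies within the long non-coding RNA gene LOC134480673, with Pttg1 and Slu7 as the nearest protein-coding genes on 1 side. Mir146b lies within the span of the protein-coding gene C1h10orf95, with Fbxl15 and Cuedc2 on 1 side and Mfsd13a and Actr1a on the other. This assembly is not the build to which the reads were aligned, and no coordinates are given.

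The libraries held 3.88 to 6.92 M counts given to miRNAs, where M stands for mega, and 4.70 ± 0.663 M on average (SD, n = 18), and 373 miRNAs, all 4 arms among them, passed the filter of more than 10 counts in at least 6 libraries. bPYX+GFP replicate 3 was the deepest library, at 6.92 M against at most 4.66 M in the rest of its group. The tissue was checked against marker miRNAs. Of 5 listed arms of the sensory neuron miRNAs miR-183, miR-96 and miR-182, 4 had counts, while miR-183-5p was listed at 0. Of 7 listed arms of glial miRNAs 4 had counts, with both arms of miR-338 and miR-219a-2-3p at 0, and of 8 listed arms of skeletal muscle miRNAs 4 had counts, with miR-1-3p, miR-1-5p, miR-133a-3p and miR-206-5p at 0, miR-133b-5p counted in 1 library and miR-133a-5p in 8, at group means of at most 0.204 CPM. rno-miR-1b, a relative of miR-1 that was not on that list and was looked up after its values were seen, stood at 8629 CPM in naïve, 9453 CPM in bPYX+GFP and 10614 CPM in bPYX+NT3 rats. Whether an entry at 0 means that the miRNA was missing from the tissue, or that its reads were given to another entry or to none, was not tested. Whole ganglia hold neurons, glia and blood cells, and a lower level in such tissue cannot be told apart as fewer cells of a type or less RNA per cell.

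Levels are given as counts per M miRNA counts after TMM scaling (CPM). A read of a mature miRNA stands for 1 ligated RNA whatever its length, although ligation and PCR favour some sequences, so that levels of different arms are compared only roughly.

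rno-miR-146b-5p was the most abundant of the 4 arms in every library and rno-miR-146a-5p came next, and both 3p arms were far lower. In naïve DRG rno-miR-146b-5p ran from 7041 to 11745 CPM with a median of 8556 CPM, and rno-miR-146a-5p from 1921 to 2168 CPM with a median of 1991 CPM. rno-miR-146b-3p ran from 10.8 to 15.5 CPM with a median of 13.6 CPM, and rno-miR-146a-3p from 1.53 to 3.52 CPM with a median of 2.16 CPM. The levels of the 4 arms were thus separated in naïve libraries by more than the spread within each arm, and their order was the same in the bPYX groups, where the ranges of the arms did not overlap each other either. By mean level among all 753 listed miRNAs, tested or not, rno-miR-146b-5p took place 19 in naïve rats, 24 in bPYX+GFP rats and 20 in bPYX+NT3 rats. rno-miR-146a-5p took places 42, 36 and 35, rno-miR-146b-3p places 282, 305 and 291, and rno-miR-146a-3p places 370, 344 and 347.

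**Figure D1:**
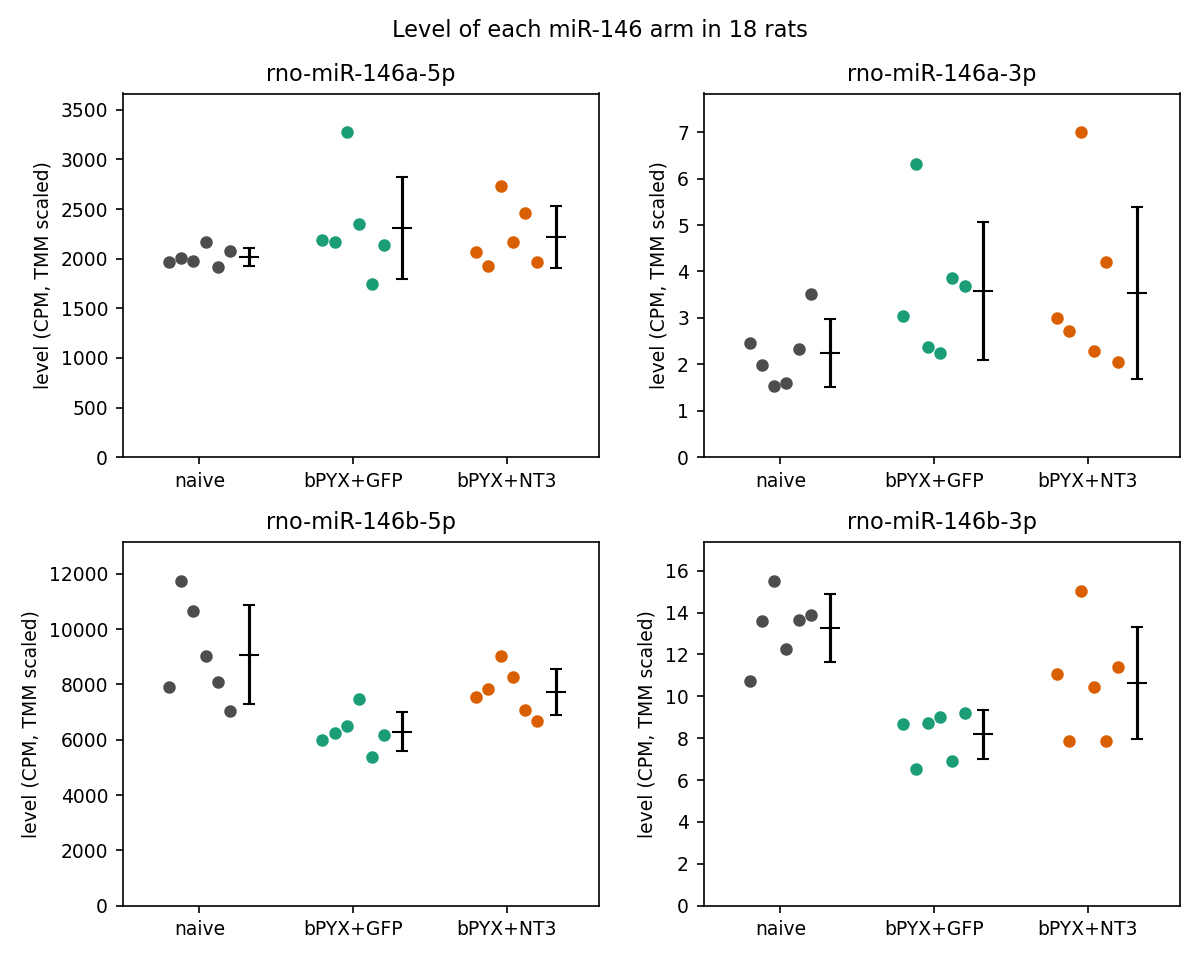
Level of each miR-146 arm in each rat, in CPM after TMM scaling on linear axes that start at 0. Points are rats, with naïve in grey, bPYX+GFP in green and bPYX+NT3 in orange, and bars are the mean ± SD of 6 rats. Both arms of miR-146b are lowest on average in bPYX+GFP, and rno-miR-146a-5p has 1 high library, bPYX+GFP replicate 3 at 3272 CPM.

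To ask what 10 weeks of corticospinal injury with the control vector left in the ganglia, bPYX+GFP rats were compared with naïve rats. rno-miR-146b-5p, the main arm of its precursor, lay between 5382 and 7488 CPM in bPYX+GFP, with a median of 6213 CPM. Of 6 bPYX+GFP libraries, 5 lay below the lowest naïve library, and the remaining library, at 7488 CPM, lay inside the naïve range. The mean was 6295 ± 693 CPM against 9078 ± 1798 CPM in naïve rats (SD, n = 6 each), a log2 fold change of -0.53 ± 0.12 (SE).

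rno-miR-146b-3p, the minor arm, lay between 6.53 and 9.21 CPM in bPYX+GFP, with a median of 8.70 CPM, against 10.8 to 15.5 CPM in naïve rats. The groups did not overlap. The mean was 8.18 ± 1.15 CPM against 13.3 ± 1.61 CPM (SD, n = 6 each), a log2 fold change of -0.70 ± 0.13 (SE). This arm rested on 30 to 55 counts per bPYX+GFP library and 48 to 71 per naïve library. Counting alone would give a coefficient of variation of 12.7% at the naïve counts, and the measured one was 12.2%, a value that 6 rats give with little precision.

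rno-miR-146a-5p, which shares its seed with rno-miR-146b-5p, lay between 1748 and 3272 CPM in bPYX+GFP, with a median of 2182 CPM. Of 6 libraries, 4 lay above the highest naïve library and 1, replicate 5, lay below the lowest. The mean was 2311 ± 511 CPM against 2019 ± 88.9 CPM in naïve rats (SD, n = 6 each), which is 0.19 ± 0.11 on the log2 scale (SE, adjusted p = 0.328 by edgeR's quasi-likelihood test). Without bPYX+GFP replicate 3 the log2 fold change was 0.07. The coefficient of variation of this arm was 4.40% over naïve rats and 22.1% over bPYX+GFP rats, against about 1.03% and 0.933% from counting alone. It was 10.5% in bPYX+GFP without replicate 3 and 2.83% in naïve rats without replicate 4, an omission added after the values were seen.

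rno-miR-146a-3p, the arm with the fewest counts, lay between 2.25 and 6.31 CPM in bPYX+GFP, with a median of 3.36 CPM. All 6 libraries lay above the naïve mean and 3 above the highest naïve library. The mean was 3.59 ± 1.49 CPM against 2.24 ± 0.731 CPM in naïve rats (SD, n = 6 each), a log2 fold change of 0.66 ± 0.30 (SE, adjusted p = 0.232 by edgeR), and of 0.43 without replicate 2, which held the group's highest level. The libraries held 7 to 17 counts of this arm in naïve rats and 10 to 29 in bPYX+GFP rats, and counting alone gives a coefficient of variation of 30.9% at the naïve counts, against 32.6% measured. Without naïve replicate 6 the measured value was 21.2%.

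By an adjusted p under 0.05, 2 of the 4 arms were called between bPYX+GFP and naïve rats, both of them miR-146b arms and both lower, against 2.41% of all 373 tested miRNAs called and 1.34% called as lower. By an unadjusted p under 0.05, 3 of the 4 arms were called, against 21.2% of all tested. The arms whose groups did not overlap numbered 1 of 4, against 4.02% of all tested. Nothing is read from these counts, since the family was taken for this contrast. The count of called arms was 1 without any of 6 libraries in turn: naïve replicate 3 or 4, or bPYX+GFP replicate 1, 2, 5 or 6. The arm lost was rno-miR-146b-5p, called in 6 of the 12 fits with 1 library left out, while rno-miR-146b-3p was called in all 12. The shares of all miRNAs above are from the fit on all libraries of the comparison. Those of the refits are not given, so this drop cannot be set against them.

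**Figure D2:**
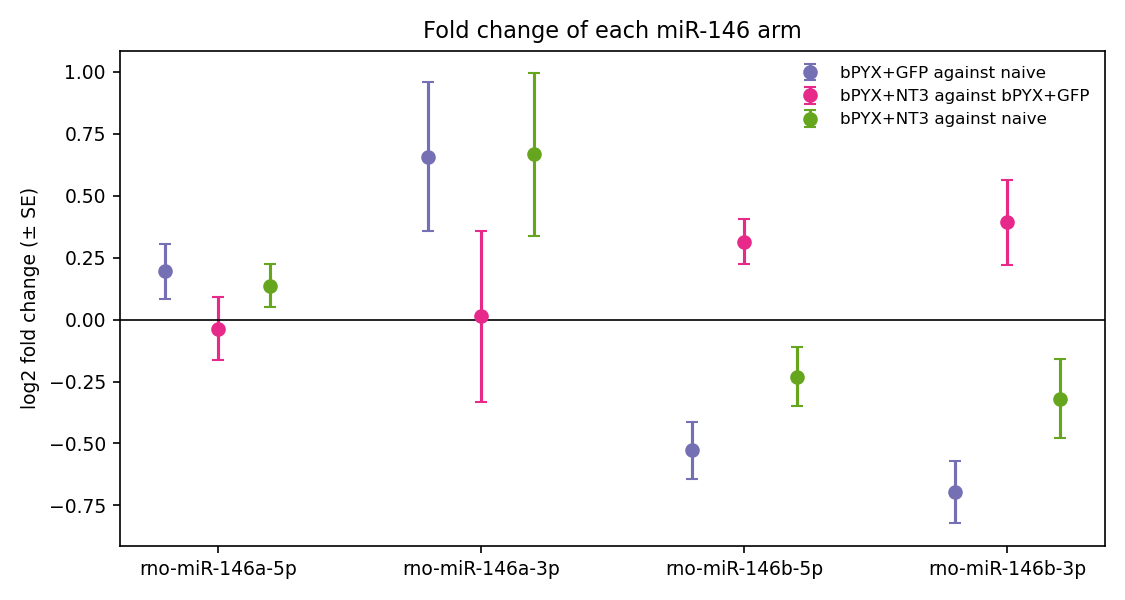
Log2 fold change of each arm in the 3 comparisons, fitted with edgeR on 12 libraries each, with bars of ± 1 SE and a line at 0. The miR-146b arms stand at -0.53 and -0.70 in bPYX+GFP against naïve and at 0.31 and 0.39 in bPYX+NT3 against bPYX+GFP, while both intervals of miR-146a in the latter comparison span 0.

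bPYX+NT3 rats were compared with bPYX+GFP rats to ask what neurotrophin-3 in the muscle, a growth factor for proprioceptive neurons, changed in the ganglia of injured rats. rno-miR-146b-5p lay between 6689 and 9024 CPM in bPYX+NT3, with a median of 7681 CPM. All 6 libraries lay above the bPYX+GFP mean and 4 above the highest bPYX+GFP library. The mean was 7738 ± 840 CPM (SD, n = 6), a log2 fold change of 0.31 ± 0.09 (SE) against bPYX+GFP.

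rno-miR-146b-3p lay between 7.85 and 15.1 CPM, with a median of 10.8 CPM and a mean of 10.6 ± 2.67 CPM (SD, n = 6). Of 6 bPYX+NT3 libraries, 4 lay above the highest bPYX+GFP library, and the other two lay at the low end, inside the bPYX+GFP range. The log2 fold change was 0.39 ± 0.17 (SE), and 0.23 without bPYX+NT3 replicate 3, which held the group's highest level of this arm.

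rno-miR-146a-5p lay between 1924 and 2730 CPM in bPYX+NT3, with a median of 2119 CPM and a mean of 2220 ± 314 CPM (SD, n = 6), and all 6 libraries lay within the bPYX+GFP range. Its log2 fold change against bPYX+GFP was -0.04 ± 0.13 (SE, adjusted p = 0.939 by edgeR), and its sign turned without bPYX+GFP replicate 3, to 0.07, without bPYX+NT3 replicate 6, and when the counts were scaled by library size alone. rno-miR-146a-3p lay between 2.04 and 7.00 CPM, with a median of 2.85 CPM and a mean of 3.54 ± 1.85 CPM (SD, n = 6). Its log2 fold change was 0.01 ± 0.34 (SE, adjusted p = 0.986 by edgeR), with no stable sign.

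None of the 4 arms was called between bPYX+NT3 and bPYX+GFP by edgeR's adjusted p, where 0% of all 373 miRNAs were called, a count of 0 that DESeq2's Wald test gave as well. By an unadjusted p under 0.05 the 2 arms of miR-146b were called, against 8.58% of all tested, and nothing is read from this count either. No arm had groups that did not overlap, as was the case for 0% of all tested.

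Against naïve rats, the arms of miR-146b in bPYX+NT3 lay between the levels of the other groups. The log2 fold change was -0.23 ± 0.12 for rno-miR-146b-5p and -0.32 ± 0.16 for rno-miR-146b-3p (SE). All 6 bPYX+NT3 libraries lay below the naïve mean of rno-miR-146b-5p, but only 1 lay below the lowest naïve library. Without naïve replicate 2, which held the highest level of this arm, the value was -0.14. For rno-miR-146b-3p, 5 of 6 lay below the naïve mean and 3 below the lowest naïve library.

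The arms of miR-146a in bPYX+NT3 had log2 fold changes of 0.14 ± 0.09 (SE, adjusted p = 0.463 by edgeR) for rno-miR-146a-5p and 0.67 ± 0.33 (SE, adjusted p = 0.353 by edgeR) for rno-miR-146a-3p against naïve rats. rno-miR-146a-5p lay above the highest naïve library in 3 of 6 libraries and rno-miR-146a-3p in 2 of 6. Without bPYX+NT3 replicate 3, which held the highest level of either arm in its group, these values were 0.07 and 0.35.

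None of the 4 arms was called in bPYX+NT3 against naïve rats, by an adjusted or an unadjusted p under 0.05, with edgeR calling 0% and 13.7% of all 373 miRNAs, and DESeq2 calling 0 of the 4 arms and 1 miRNA in all by its adjusted p. No arm had groups that did not overlap, against 1.34% of all tested. This comparison shares libraries with both of the others, so its values are not independent of theirs.

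**Figure D3:**
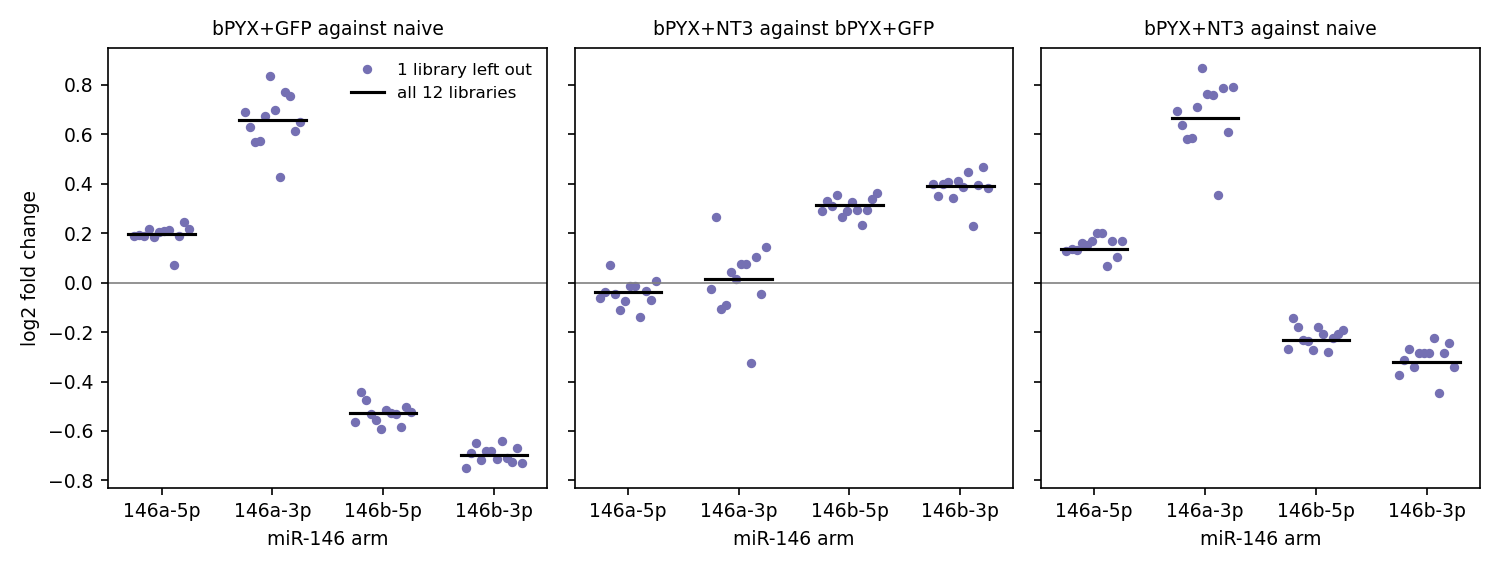
Log2 fold change of each arm with 1 library left out in turn (points) beside the value from all 12 libraries of the comparison (lines), with a line at 0. The miR-146b arms stay below 0 in every fit against naïve, while rno-miR-146a-5p drops to 0.07 in bPYX+GFP against naïve when bPYX+GFP replicate 3 is left out, and both miR-146a arms fall on either side of 0 in bPYX+NT3 against bPYX+GFP.

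The shared seed makes the 5p arms comparable as a pool of molecules with the same seed. Their summed level was 11097 ± 1792 CPM in naïve rats, 8606 ± 1031 CPM in bPYX+GFP rats and 9958 ± 1049 CPM in bPYX+NT3 rats (SD, n = 6 each). rno-miR-146b-5p made up most of that pool in every library.

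rno-miR-146a-5p took between 14.6 and 22.8% of the pool in naïve rats (median 19.3%), between 23.9 and 33.5% in bPYX+GFP rats (median 25.7%) and between 19.7 and 25.8% in bPYX+NT3 rats (median 22.1%). The bPYX+GFP and naïve libraries did not overlap, and 5 of 6 bPYX+NT3 libraries lay below the lowest bPYX+GFP library while 2 of 6 lay above the highest naïve library. The mean share was 18.6 ± 3.00%, 26.7 ± 3.51% and 22.3 ± 2.13% (SD, n = 6 each), and 25.3% in bPYX+GFP without replicate 3. Put as a ratio, rno-miR-146b-5p exceeded rno-miR-146a-5p by 4.51 ± 0.929 times in naïve rats, 2.79 ± 0.429 times in bPYX+GFP rats and 3.52 ± 0.418 times in bPYX+NT3 rats. A share within a pair does not depend on library scaling, but it holds the miR-146b values that chose the family, and it was not tested.

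**Figure D4:**
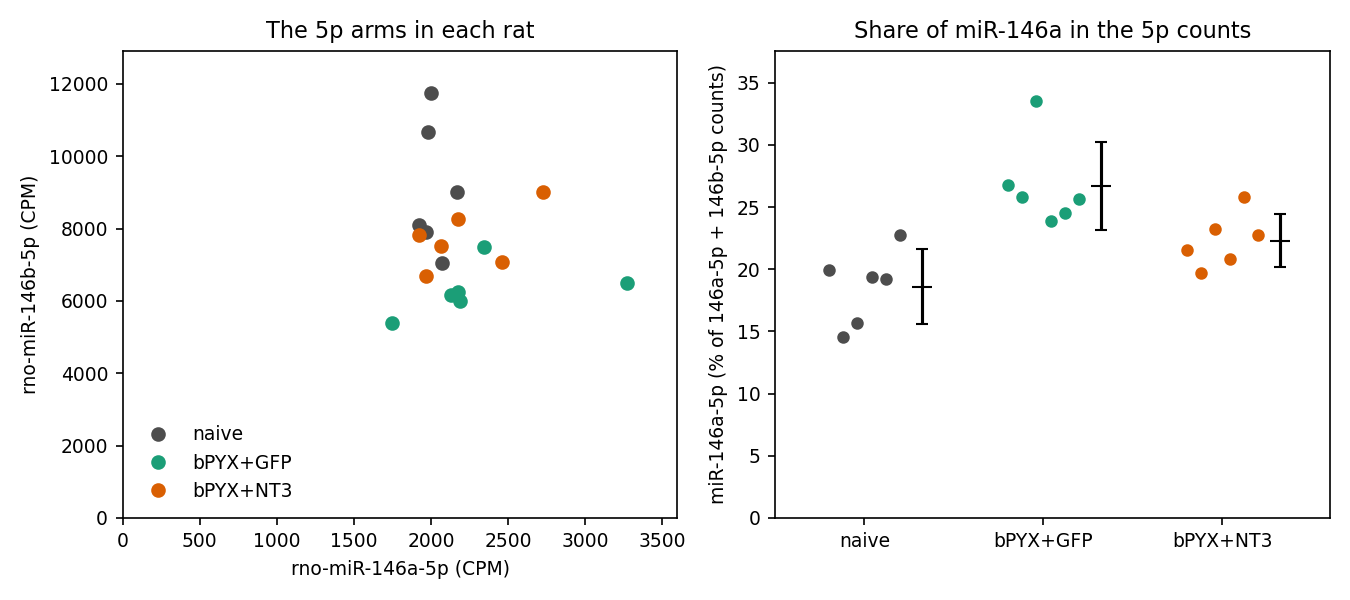
Left, level of rno-miR-146b-5p against that of rno-miR-146a-5p in each rat, in CPM. Right, rno-miR-146a-5p as a percent of the counts of both 5p arms, with points for rats and bars for the mean ± SD of 6 rats. The bPYX+GFP libraries, from 23.9 to 33.5%, all lie above the highest naïve library, at 22.8%.

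The group means of the 3p arms fell in the same order, with far fewer counts. rno-miR-146a-3p took 14.5 ± 4.30% of the 3p counts in naïve rats, 30.2 ± 10.9% in bPYX+GFP rats and 24.4 ± 7.77% in bPYX+NT3 rats (SD, n = 6 each). In bPYX+GFP, 5 of 6 libraries lay above the highest naïve library, and the highest, replicate 2, reached 49.2%. In bPYX+NT3, 4 of 6 libraries lay above the highest naïve library, and 2 of 6 lay below the lowest bPYX+GFP library. For the share of the 5p arm these counts were 2 of 6 and 5 of 6.

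Within a precursor, the minor 3p arm can be set against the 5p arm of the same hairpin. For miR-146b, 3p counts were 0.150 ± 0.0287% of 5p counts in naïve rats, 0.130 ± 0.0165% in bPYX+GFP rats and 0.137 ± 0.0292% in bPYX+NT3 rats (SD, n = 6 each). The groups overlapped. The mean level in bPYX+GFP was 0.693 of the naïve mean for the 5p arm of miR-146b and 0.617 for its 3p arm. For miR-146a the same percentages were 0.111 ± 0.0358, 0.165 ± 0.0811 and 0.154 ± 0.0564%. These also overlapped, and within bPYX+GFP alone they ran from 0.0727% in replicate 3, the library with the highest rno-miR-146a-5p, to 0.290% in replicate 2.

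**Figure D5:**
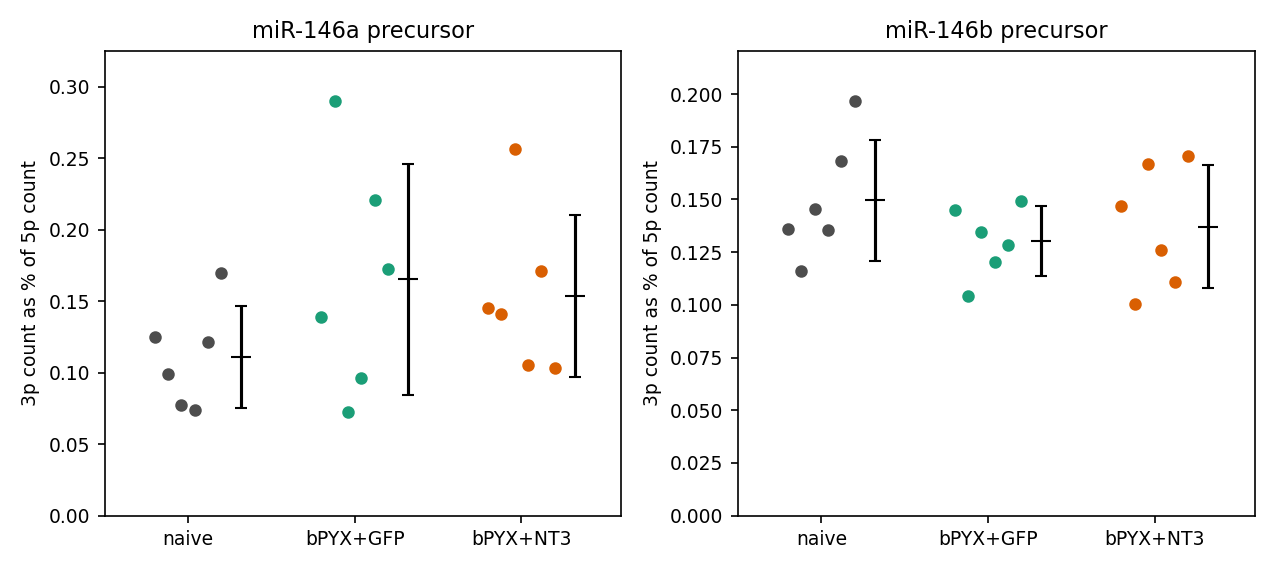
Counts of the 3p arm as a percent of those of the 5p arm of the same precursor, with points for rats and bars for the mean ± SD of 6 rats, on axes that start at 0 and differ in scale. The 3 groups overlap for both precursors, and the highest library, bPYX+GFP replicate 2 for miR-146a, lies at 0.290%.

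Across the 18 libraries the arms of miR-146b varied together, with Pearson's r of 0.737 and Spearman's rho of 0.695 between log2 levels, and r was 0.671 without the 2 libraries farthest from the median (naïve replicates 2 and 3). After the group means were taken out, r was 0.391. The 5p arms of miR-146a and miR-146b had r of -0.05 and rho of -0.07 over all libraries and r of 0.31 within groups. The arms of miR-146a had r of 0.243 and rho of 0.249, and r of 0.09 within groups, with few counts behind the 3p arm. rno-miR-146a-3p ran against both arms of miR-146b over all libraries, with r of -0.44 and rho of -0.53 for rno-miR-146b-5p and r of -0.36 and rho of -0.45 for rno-miR-146b-3p. Without the 2 libraries farthest from its median (bPYX+NT3 replicate 3 and bPYX+GFP replicate 2) r was -0.72 and -0.62, and within groups it was -0.22 and -0.03. For rno-miR-146a-5p and rno-miR-146b-3p r was -0.05 over all libraries, rho was -0.15 and r was 0.35 within groups. These are descriptions over libraries that share group differences, depth and scaling.

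The miRNAs whose levels over the 18 libraries were most like each arm were found by Pearson's r among the 373 tested. For rno-miR-146b-5p these were miR-221-5p, with r of 0.870 over all libraries and 0.787 within groups, rno-miR-146b-3p, with 0.737 and 0.391, and miR-381-3p, with 0.708 and 0.312. For rno-miR-146b-3p they were miR-423-3p, with r of 0.798 and 0.609 within groups, rno-miR-146b-5p, and let-7g-5p, with 0.718 and 0.429. For these partners r was thus lower once the group means were taken out. The own partner arm was thus among the 3 most alike miRNAs for both arms of miR-146b, and for neither arm of miR-146a. For rno-miR-146a-5p they were miR-99a-3p, miR-224-5p and miR-25-3p, with r of 0.798, 0.651 and 0.636, and of 0.836, 0.712 and 0.601 within groups. Spearman's rho was 0.414, 0.110 and 0.455 for the same pairs, lower than r in each. For rno-miR-146a-3p they were miR-195-5p, let-7i-3p and miR-16-5p, with r from 0.720 to 0.783, and from 0.730 to 0.743 within groups.

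Other miRNAs that Toll-like receptor and NF-kB signalling is known to induce were counted beside the family. Of 11 listed arms of miR-155, miR-21, miR-132, miR-147, miR-9a and miR-187, 10 had counts and 6 passed the filter. In each of the 3 comparisons, 0 of 6 had an edgeR adjusted p under 0.05 in either direction, and by an unadjusted p 1 of 6 was called, as higher, in bPYX+GFP against naïve rats and 0 in the others. Over all 373 miRNAs the shares called were 2.41%, 0% and 0% by the adjusted p and 21.2%, 8.58% and 13.7% by the unadjusted p, for bPYX+GFP against naïve, bPYX+NT3 against bPYX+GFP and bPYX+NT3 against naïve, so that counts out of 6 are too small to set the list apart from them. In the same order, the median log2 fold change of the list was 0.03, 0.19 and 0.11, beside 0.00, 0.00 and -0.01 over all tested miRNAs.

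The 3 listed arms with the smallest p were miR-187-3p, miR-132-3p, which is also induced by neuronal activity, and miR-147. Each is given for the comparison where its own p was smallest. miR-187-3p stood at 71.4 CPM in naïve rats and 85.0 CPM in bPYX+GFP rats, a log2 fold change of 0.25 ± 0.11 (SE, adjusted p = 0.232 by edgeR). miR-132-3p stood at 36.4 CPM in bPYX+GFP and 42.6 CPM in bPYX+NT3, a log2 fold change of 0.24 ± 0.12 (SE, adjusted p = 0.587 by edgeR). miR-147 stood at 3.84 CPM in naïve and 6.20 CPM in bPYX+NT3 rats, a log2 fold change of 0.68 ± 0.36 (SE, adjusted p = 0.368 by edgeR). None of these passed the test.

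Because miR-146 is abundant in immune cells, miRNAs of blood and immune cells (miR-142, miR-150, miR-223, miR-451 and miR-144) were measured in the same libraries. Of 10 listed arms, all had counts and 9 passed the filter, and none was called in any comparison by edgeR's adjusted p, where 2.41%, 0% and 0% of all 373 miRNAs were called, or by its unadjusted p, where 21.2%, 8.58% and 13.7% were. The median log2 fold change of the list was 0.22 in bPYX+GFP against naïve, -0.11 in bPYX+NT3 against bPYX+GFP and 0.13 in bPYX+NT3 against naïve, beside 0.00, 0.00 and -0.01 over all tested miRNAs. The summed level of the list ran from 955 to 2820 CPM in naïve rats, from 1490 to 3074 CPM in bPYX+GFP rats and from 1227 to 2214 CPM in bPYX+NT3 rats. The ranges overlapped, and the means of 1732, 2000 and 1800 CPM were not lowest in bPYX+GFP, where rno-miR-146b-5p was lowest.

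The 3 arms of that list with the smallest p were miR-144-3p and miR-144-5p, of red blood cell precursors, and miR-150-3p, of lymphocytes. Each is given for the comparison where its own p was smallest. miR-144-3p stood at 9.81 CPM in naïve and 16.0 CPM in bPYX+GFP rats, a log2 fold change of 0.70 ± 0.40 (SE, adjusted p = 0.328 by edgeR). miR-144-5p stood at 8.80 CPM in naïve and 13.3 CPM in bPYX+NT3 rats, a log2 fold change of 0.60 ± 0.36 (SE, adjusted p = 0.425 by edgeR). miR-150-3p stood at 18.2 CPM in naïve and 13.3 CPM in bPYX+NT3 rats, a log2 fold change of -0.46 ± 0.30 (SE, adjusted p = 0.473 by edgeR). The far more abundant miR-150-5p stood at 991 and 940 CPM in the same groups, a log2 fold change of -0.08 ± 0.24 (SE, adjusted p = 0.914 by edgeR). The part of blood and immune cells in the miR-146 levels was not tested.

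Markers of the main cells of the ganglion were set beside the family in the same way. The summed level of the sensory neuron list was 27261 ± 2748 CPM in naïve rats, 30800 ± 1788 CPM in bPYX+GFP rats and 30398 ± 2537 CPM in bPYX+NT3 rats (SD, n = 6 each). It was thus lowest on average in naïve rats, where both arms of miR-146b were highest, and the ranges overlapped, with 23684 to 31046 CPM in naïve and 29010 to 33150 CPM in bPYX+GFP rats. Of 4 tested arms, 0 had an edgeR adjusted p under 0.05 in any comparison, and by an unadjusted p 2 of 4 were called as higher in bPYX+GFP against naïve, 0 in bPYX+NT3 against bPYX+GFP and 1, as higher, in bPYX+NT3 against naïve, beside the shares of all miRNAs given above. The glial list summed to 9286 ± 1677, 9179 ± 790 and 7967 ± 1950 CPM in naïve, bPYX+GFP and bPYX+NT3 rats (SD, n = 6 each). Most of that sum was 1 arm, miR-204-5p, at means of 8935, 8781 and 7636 CPM in the same order. Of the 3 tested arms of the glial list, 0 were called by the adjusted p in any comparison. By the unadjusted p 1 was called, as higher, in bPYX+GFP against naïve. The skeletal muscle list summed to 99.0 to 179 CPM in naïve, 71.5 to 336 CPM in bPYX+GFP and 84.5 to 266 CPM in bPYX+NT3 rats, with 0 of 2 tested arms called by either p. The part of neurons, glia or muscle in the miR-146 levels was not tested.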

How the data were processed

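The authors pooled the C6-8 DRG of each rat, extracted total RNA and sequenced small RNA libraries. Per the submitters' processing notes and the study's methods, reads were demultiplexed with bcl2fastq 1.8.4, aligned with Bowtie2 to Rnor_5.0 and counted with HTSeq, and the deposited values are raw, unnormalized counts of reads for each mature miRNA. The 5 entries of reads given to no miRNA were left out. Of all reads counted, 34.9 ± 1.68% were given to a miRNA and 31.4 ± 1.88% had too low an alignment quality (SD, n = 18), so near-identical miRNAs may be undercounted. The SD and SE given are between rats. Coefficients of variation given as from counting alone cover counting error only, and PCR copies are not independent molecules. The labels do not say more of the replicates than that they are separate samples, 1 per rat.

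miRNAs with more than 10 counts in at least 6 of 18 libraries were tested (373 of the 572 with counts). Each comparison was fitted on its 12 libraries with edgeR 4.0.16 in R 4.3.3 (TMM, quasi-likelihood F test), with Benjamini-Hochberg adjustment over the 373 miRNAs. The SE was taken from the F statistic. CPM were scaled by TMM over 18 libraries, and a prior count of 2 was used for log2 levels. Libraries of a group differed beyond sampling noise, so none was treated as a copy. The fit was also run on simulated data, and no conclusion here rests on that run. Naïve replicate 1, an outlier in the study's methods, was kept and left out as an alternative. Alternatives were other scalings, filters and tests, DESeq2 1.42.0, a joint fit of the 3 groups, a block for the replicate number, and omission of each library in turn.

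The members and all lists were chosen with earlier results of these data known, the lists from general knowledge. Named were the 4 arms, the 3 most alike miRNAs of each, and, from the Toll-like receptor and NF-kB list and the blood and immune list, members with an adjusted p under 0.05 or, where fewer than 3 passed, the 3 of smallest p in any comparison. Sequences and neighbouring genes came from RefSeq (GRCr8), matched by miRNA name.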

Additional observations from a re-analysis of the deposited data

Results flagged for a closer look

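Libraries that stood apart from the others of their group by Dixon's criterion were sought in 16 measures of the 3 groups, 48 sets of 6 libraries in all, and 3 sets had such a library. Chance gives about 1 in 20. In bPYX+GFP replicate 3, rno-miR-146a-5p took 33.5% of the counts of both 5p arms, with the next library at 26.8%. The same library held 6.92 M miRNA counts, with the next of its group at 4.66 M. In bPYX+GFP replicate 4 the summed level of the blood and immune list was 3074 CPM, with the next library at 2072 CPM. The part of depth or of blood cells in these values was not tested.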

How the results depend on the processing

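Of 444 values recomputed under alternatives for 36 results, 423 kept their direction and their side of the threshold or moved by less than the stated spread. In bPYX+GFP against naïve rats, the called arms numbered 1 under a filter of more than 100 counts, which removed both 3p arms, and 1 to 2 with 1 library left out. The shares of all miRNAs called in these refits are not given, and nothing is read from the counts. The log2 fold change of rno-miR-146b-5p in that comparison lay between -0.59 and -0.44 and that of rno-miR-146b-3p between -0.75 and -0.64 in all alternatives. For bPYX+NT3 against bPYX+GFP, rno-miR-146a-5p turned to 0.00613 with scaling by library size only and ranged from -0.139 to 0.0709 with 1 library left out. rno-miR-146a-3p ranged from -0.325 to 0.267, and turned sign without bPYX+GFP replicate 1, 3 or 4 or bPYX+NT3 replicate 3 or 5. The causes were not tested. With the replicate number as a block, 2, 0 and 0 arms were called in bPYX+GFP against naïve, bPYX+NT3 against bPYX+GFP and bPYX+NT3 against naïve, as without it. Nothing is read from these counts, since miR-146b chose the family and the share of all miRNAs called with the block is not given. Apart from that block, the replicate numbers were not used to pair the samples. Of 18 same-numbered pairs, 6 correlated above 0.1 (range -0.38 to 0.37), and 6 of 18 correlated best with their own number. These values do not settle whether the numbers pair the samples. The counts of the 3p arms, 7 to 33 for rno-miR-146a-3p, limit what could be seen of them.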
